A study of Mus musculus with 10 samples.

Results

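The 10 mouse genes of the exchangeable apolipoproteins, Apoa1, Apoa2, Apoa4, Apoa5, Apoc1, Apoc2, Apoc3, Apoc4, Apoe and Apom, were followed in cultured primary hepatocytes given medium from adipocytes with or without Mttp. Members were taken by gene symbol, and all 10 were found once each among the 56748 genes of the deposited tables. Donors of the hepatocytes were wild-type mice, and the cells stayed in the medium overnight. The fat cells were grown from the inguinal stromal vascular fraction of male mice after 6 months of an obesogenic diet, and were starved overnight before their medium was taken. Donors were either Mttpf/f mice (medium here called flox medium, group Mttp_flox_CM) or A-Mttp-/- mice, which lack Mttp in adipose tissue (knockout medium, group Mttp_KO_CM). Each group had 5 poly-A selected RNA-seq libraries. The labels give 3 fat donors, and the driver of the deletion and the ages of the mice have not been given in these labels. Both kinds of fat cell were differentiated with IBMX, insulin, dexamethasone, indomethacin and rosiglitazone, so both media came from cells with that history. Nothing in the labels ties the libraries of a group to separate cultures or mice, and p-values therefore cover the variation among these libraries alone, part or all of which may be technical.

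Exchangeable apolipoproteins are proteins that lie on the surface of plasma lipoproteins and can move from one particle to another, unlike apolipoprotein B, which stays with its particle for life. Most have amphipathic helices that bind phospholipid, while apolipoprotein M has a lipocalin fold and holds sphingosine 1-phosphate. The liver makes most of those in plasma, and in mice as in humans most of the genes sit in 2 clusters, Apoa1-Apoc3-Apoa4-Apoa5 and Apoe-Apoc1-Apoc4-Apoc2. They shape high density lipoprotein, govern lipoprotein lipase, and direct remnant particles to hepatic receptors.

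Summed counts per library ran from 14199798 to 15950530 with flox medium and from 14283517 to 17178131 with knockout medium. Column names matched the labels for 4 libraries of each group. The remaining column of each group carries a number that no label gives, and it is called the unnumbered library here. The hepatocyte label was checked against marker genes. The 10 hepatocyte markers found, albumin among them, summed to between 49078 and 51247 CPM (the gene's count over a library size scaled by TMM factors) with flox medium and between 40228 and 42194 CPM with knockout medium, and all 10 were lower with knockout medium. Markers of other liver cells were present in both groups. Endothelial markers summed to between 2342 and 2506 CPM and between 1337 and 1415 CPM, with 11 of 11 lower. Macrophage markers summed to between 790 and 862 CPM and between 544 and 609 CPM, with 11 of 12 lower and Cd68 higher, and stellate cell markers to between 93.4 and 104 CPM and between 50.4 and 57.7 CPM, with 8 of 10 lower. Cholangiocyte markers summed to between 37.0 and 40.8 CPM and between 30.7 and 33.3 CPM, with 1 of 4 tested lower. Higher and lower here mean an edgeR adjusted p under 0.05, passed as lower by 18.1% of all genes tested and as higher by 18.2%. Every stellate cell marker had a negative log2 change. The tested cholangiocyte markers had log2 changes of -0.17 (Krt19), -0.15 (Krt7), 0.11 (Epcam) and -0.29 (Sox9).

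With knockout medium the exchangeable apolipoproteins moved in both directions. Apoa1 fell by 31.2%, Apom fell by 24.4%, Apoe fell by 10.01% and Apoc3 fell by 8.69%. Apoa5 rose by 36.6% and Apoa4 by 23.7%, while Apoa2, which also passed the test, was 6.34% higher. Apoc1, Apoc2 and Apoc4 did not pass. In all, 3 of 10 members were higher and 4 lower (edgeR quasi-likelihood test, adjusted p under 0.05 over all genes tested), against 18.2% of all 14183 genes tested that were higher and 18.1% that were lower, or 36.4% in either direction. With library size alone as the scaling, 1982 of all genes were higher and 3217 lower, against 2585 and 2571 here. Among genes with a mean of at least 50 CPM, 53.4% were called, 33.5% as higher and 19.9% as lower, and of the 8 members above that level 7 were called. In CPM the libraries of the media lay apart for 5 members, 2 higher and 3 lower. Over all genes tested they lay apart for 25.7%, made up of 13% higher and 12.7% lower, and for 41.5% of genes with a mean of at least 50 CPM. The median log2 change of the members was -0.01, and that of all genes tested 0.00. The call for Apoa2 was lost in 17 of 20 alternative analyses, and without the unnumbered libraries 2 members were higher and 4 lower.

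**Figure D1:**
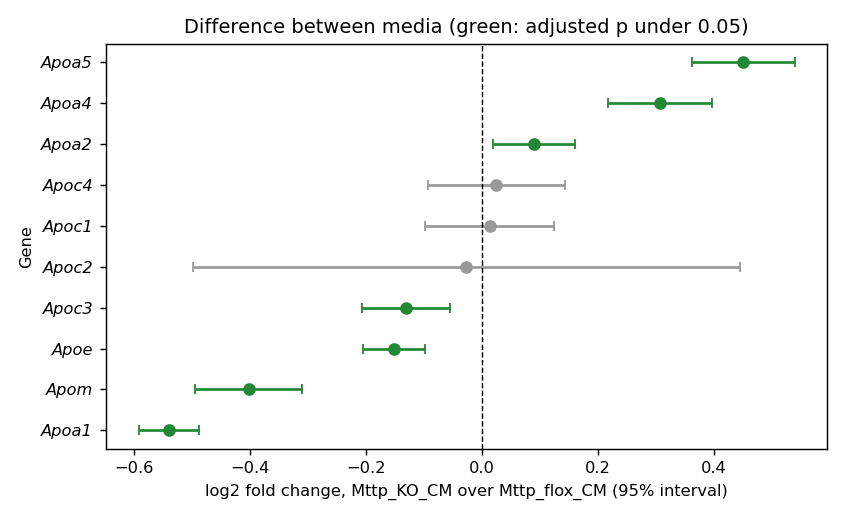
The horizontal axis gives the log2 fold change of each gene, knockout over flox medium, with its 95% interval (edgeR, 5 libraries per group), and genes are ordered by change. Green points passed an adjusted p of 0.05, and the 3 grey points, Apoc1, Apoc2 and Apoc4, have intervals that span 0.

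Levels per length can be compared between members on the FPKM scale (the count over gene length and 1 constant per library, as deposited). Summed counts were 0.980 to 0.984 times the library size implied by that constant with flox medium. With knockout medium they were 1.005 to 1.013 times that size, so deposited FPKM carry a scaling between the media besides summed counts. Apoa1 led in both groups, with 5223 ± 154 FPKM (SD, n = 5) in flox medium and 3593 ± 87.8 FPKM in knockout medium. It ranked 3 among all genes in flox medium and 4 in knockout medium. Apoe followed with 2221 ± 80.4 FPKM and 2000 ± 45.3 FPKM, so that Apoa1 stood 2.35-fold above Apoe in flox medium and 1.80-fold above it in knockout medium. Apoa2 came next at 962 ± 52.2 FPKM and 1024 ± 43.5 FPKM. Below these came Apoc3 with 386 ± 26.97 and 352 ± 9.11 FPKM and Apoc1 with 296 ± 33.3 and 298 ± 18.2 FPKM. The ranges of Apoc3 and Apoc1 overlapped in flox medium, where the lowest Apoc3 library had 347.9 FPKM and the highest Apoc1 library 348.4 FPKM. Apom and Apoa4 exchanged places. Apom stood above Apoa4 in flox medium, at 112.0 ± 7.96 against 75.01 ± 5.65 FPKM. In knockout medium Apoa4 had 92.8 ± 4.78 FPKM and Apom 84.8 ± 3.27 FPKM, with ranges that overlapped. Apoa5 (33.0 ± 2.35 and 45.1 ± 1.54 FPKM), Apoc4 (11.95 ± 0.552 and 12.2 ± 1.01 FPKM) and Apoc2 (2.00 ± 0.372 and 1.95 ± 0.525 FPKM) closed the order in both groups.

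**Figure D2:**
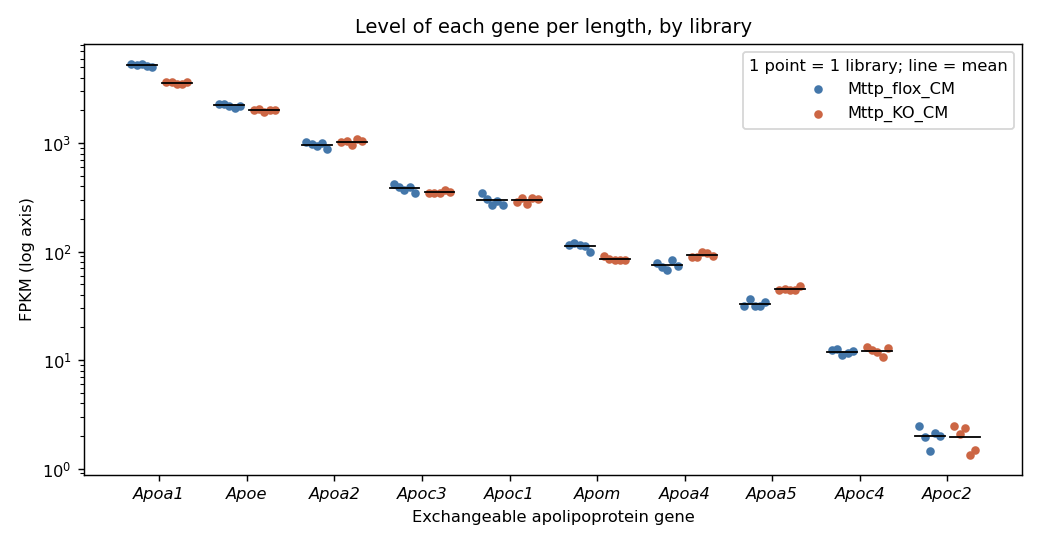
The vertical log axis gives deposited FPKM for each library (points, 5 per group) with the group mean as a line, and genes run from the highest to the lowest mean in flox medium. Levels span from 5223 FPKM for Apoa1 to 2.00 FPKM for Apoc2, and the order of Apom and Apoa4 differs between the media.

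Together the 10 genes took 1.29 ± 0.0410% of all counts in flox medium (range 1.25 to 1.34%) and 1.01 ± 0.0185% in knockout medium (range 0.985 to 1.03%). Their summed level went from 12773 to 10302 CPM. Apoa1 made up 82.1% of that net difference and Apoe 19.3%, while the other 8 nearly cancelled. On the FPKM scale the share of Apoa1 in the family's sum was 56.0 ± 0.613% in flox medium and 47.9 ± 0.832% in knockout medium. The share of Apoa2 was 10.3 ± 0.396% and 13.6 ± 0.464%, and that of Apoe 23.8 ± 0.488% and 26.6 ± 0.198%. The share of Apoe was thus higher with knockout medium although its own level was lower. These sums and shares are descriptions, with no test.

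Promoter sequence was taken from RefSeq (GRCm38.p6, another build than the GRCm39 coordinates of the counts), which held 12 start sites for 8 members, and none was matched for Apoc1 or Apoc3. The 250 bases before the start are shown for the 2 members with the largest fall and the 2 with the largest rise, because these pairs moved in opposite directions. They are written 5′ to 3′ on the strand of the gene. The motifs searched on both strands were 2 copies of GGNCA in the same direction with 2 bases between them, a loose form of the direct repeat that PPAR and HNF4 receptors bind, its hexamer AGGTCA, the TATA box TATAAA and the E-box CACGTG. The direct repeat can contain the hexamer. Capitals mark every match.
Apoa1, chr9:46228380-46228629, plus strand: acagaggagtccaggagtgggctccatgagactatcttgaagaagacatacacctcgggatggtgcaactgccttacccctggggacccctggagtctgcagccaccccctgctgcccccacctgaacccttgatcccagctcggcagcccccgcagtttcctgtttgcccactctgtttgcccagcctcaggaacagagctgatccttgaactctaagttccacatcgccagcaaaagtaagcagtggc
Apom, chr17:35131802-35132051, minus strand: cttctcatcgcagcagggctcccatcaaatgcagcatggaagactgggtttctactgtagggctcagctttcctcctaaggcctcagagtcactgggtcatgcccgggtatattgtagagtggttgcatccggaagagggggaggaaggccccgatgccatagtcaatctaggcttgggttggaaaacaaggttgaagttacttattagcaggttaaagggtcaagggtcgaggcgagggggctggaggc
Apoa4, chr9:46240594-46240843, plus strand: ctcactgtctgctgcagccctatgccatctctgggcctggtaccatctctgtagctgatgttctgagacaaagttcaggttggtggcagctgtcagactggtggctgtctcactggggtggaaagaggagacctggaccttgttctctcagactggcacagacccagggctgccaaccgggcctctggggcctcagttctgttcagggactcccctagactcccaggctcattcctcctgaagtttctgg
Apoa5, chr9:46268358-46268607, plus strand: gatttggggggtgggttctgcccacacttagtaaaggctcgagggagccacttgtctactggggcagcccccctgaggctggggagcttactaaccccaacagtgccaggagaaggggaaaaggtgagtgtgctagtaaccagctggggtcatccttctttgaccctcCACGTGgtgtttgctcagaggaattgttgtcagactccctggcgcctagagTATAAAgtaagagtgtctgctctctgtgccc

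Of these 4 windows only that of Apoa5 held a match. It has TATAAA from base -31 to -26 and CACGTG from base -82 to -77, counted back from the base before the start as -1. Counted from the other Apoa5 start, these same matches lie from -56 to -51 and from -107 to -102. Member windows not shown held TATAAA for Apoa2 and Apoe, and AGGTCA for Apoa2 and Apoc4. Among 32536 windows of the same length over all RefSeq genes, TATAAA occurred in 12.3%, CACGTG in 6.04%, AGGTCA in 14% and the loose direct repeat in 1.76%. The loose direct repeat occurred in 1 member window, that of Apoc2, from base -121 to -110. It is shown because it was the only match of that motif among the members.
Apoc2, chr7:19677942-19678191, minus strand: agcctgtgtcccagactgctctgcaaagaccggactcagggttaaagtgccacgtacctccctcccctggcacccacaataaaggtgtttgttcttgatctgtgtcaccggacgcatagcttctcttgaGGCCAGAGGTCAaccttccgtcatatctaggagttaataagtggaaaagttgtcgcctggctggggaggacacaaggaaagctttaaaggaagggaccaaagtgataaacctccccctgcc
Its 12 matched bases end in the hexamer. A match describes the letters of these windows and no more.

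The main protein of high density lipoprotein fell the most. Apoa1, which encodes apolipoprotein A-I, the acceptor of cholesterol and activator of LCAT, lies on chromosome 9 from 46139878 to 46141764 (GRCm39, plus strand, ENSMUSG00000032083). The flox libraries had 6719, 6577, 6618, 6298 and 6264 CPM, given here and below for replicates 1 to 4 and then the unnumbered library. The knockout libraries had 4543, 4498, 4387, 4314 and 4584 CPM. Every knockout library was below every flox library. The log2 change was -0.54 (SE 0.025, edgeR adjusted p = 7.0e-15), larger in size than that of 90.4% of genes tested. Each library held at least 64120 counts of Apoa1. The hepatocyte markers fell beside it, by 0.09 (Hpx) to 0.71 (Serpina1b) on the log2 scale, with 0.22 for Alb and 0.63 for Ahsg. Among them only Serpina1b, Ahsg and Cps1 (0.58) fell by more than Apoa1. The part of the markers' fall in the result was not tested. In such bulk cultures fewer cells of a type and less RNA per cell cannot be told apart.

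Apoa2 encodes apolipoprotein A-II, the other main protein of high density lipoprotein, and lies on chromosome 1 from 171052623 to 171053948 (plus strand, ENSMUSG00000005681). The flox libraries had 553, 528, 505, 534 and 479 CPM, and the knockout libraries 550.2, 559, 517, 581 and 558 CPM. The groups overlapped, and 3 knockout libraries were above every flox library. The log2 change of 0.09 (SE 0.034, edgeR adjusted p = 0.046) lay near the threshold. It no longer passed without the unnumbered flox library, the lowest of its group (log2 0.06, adjusted p = 0.197), or with library size alone as the scaling (log2 0.05, adjusted p = 0.288). The 95% interval ran from 0.02 to 0.16.

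Apom encodes apolipoprotein M, which most plasma high density lipoprotein particles that carry sphingosine 1-phosphate contain. It lies on chromosome 17 from 35347973 to 35351026 (minus strand, ENSMUSG00000024391). Its level was 118, 122, 116, 115 and 100.1 CPM in the flox libraries and 92.3, 85.9, 84.6, 84.6 and 84.3 CPM in the knockout libraries. All knockout libraries were below all flox libraries. The unnumbered flox library came nearest to them, and replicate 1 stood highest among the knockout libraries. The log2 change was -0.40 (SE 0.044, edgeR adjusted p = 7.6e-08).

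Apoe encodes apolipoprotein E, the ligand by which remnant particles reach the LDL receptor and LRP1. It lies on chromosome 7 from 19430034 to 19433113 (minus strand, ENSMUSG00000002985). The flox libraries had 4979, 4907, 4769, 4519 and 4710 CPM. The knockout libraries had 4319, 4387, 4135, 4302 and 4352 CPM, all below the lowest flox library. The log2 change was -0.15 (SE 0.026, edgeR adjusted p = 4.7e-05). Summed hepatocyte markers in knockout medium were 0.819 times those in flox medium. Macrophages and stellate cells also express Apoe, and their summed markers in knockout medium were 0.706 and 0.553 times those in flox medium. The part of any of these cell types in the lower Apoe was not tested.

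A pair of members that regulate triglyceride-rich particles in opposite ways also moved in opposite ways. Apoa5 encodes apolipoprotein A-V, which promotes lipolysis by lipoprotein lipase and lies on chromosome 9 from 46179931 to 46183217 (plus strand, ENSMUSG00000032079). Its level was 80.6, 92.9, 79.2, 79.3 and 86.6 CPM in flox medium and 111.7, 113, 113, 112.2 and 121 CPM in knockout medium. The groups lay apart, and the log2 change was 0.45 (SE 0.043, edgeR adjusted p = 6.0e-09). Apoc3 encodes apolipoprotein C-III, an inhibitor of lipolysis and of remnant uptake, and lies on chromosome 9 from 46144231 to 46146934 (minus strand, ENSMUSG00000032081). Its level was 428, 403, 379, 402 and 354 CPM in flox medium and 352, 354, 354, 374 and 363 CPM in knockout medium. Here the groups overlapped, because the unnumbered flox library lay within the knockout range. The log2 change was -0.13 (SE 0.037, edgeR adjusted p = 0.00635), and -0.17 without the unnumbered libraries.

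Apoa4 encodes apolipoprotein A-IV, made mainly by the intestine and in the mouse also by the liver, and found on nascent triglyceride-rich particles. It lies on chromosome 9 from 46151994 to 46154757 (plus strand, ENSMUSG00000032080). The flox libraries had 142, 133, 125, 152 and 134 CPM and the knockout libraries 161, 162, 179, 178 and 167 CPM. All knockout libraries were above all flox libraries (log2 0.31, SE 0.044, edgeR adjusted p = 4.1e-06). On the opposite strand Gm47528 and Gm10680 overlap Apoa4, with at most 7 counts and 0 counts in any library, and Gm47544 overlaps Apoa5 with 0 counts. Reads of such pairs cannot be told apart without strand, and the strand setting is not given in sources used here.

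The other apolipoproteins of the C group did not pass the test. Apoc1 encodes apolipoprotein C-I, an inhibitor of remnant uptake (chromosome 7 from 19423406 to 19426585, minus strand, ENSMUSG00000040564). It had 261, 227, 201, 218 and 199.8 CPM in flox medium and 214, 233, 204, 235 and 229.96 CPM in knockout medium. All knockout libraries lay within the flox range (log2 0.01, 95% interval -0.10 to 0.12, edgeR adjusted p = 0.883). Apoc4, a scarce member whose product is carried on very low density lipoprotein (chromosome 7 from 19412008 to 19415404, minus strand, ENSMUSG00000074336), had 31.3, 32.0, 28.5, 29.6 and 31.1 CPM and then 33.6, 31.5, 30.1, 27.1 and 33.0 CPM. The groups overlapped (log2 0.02, 95% interval -0.09 to 0.14, edgeR adjusted p = 0.786).

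Apoc2 encodes apolipoprotein C-II, the activator of lipoprotein lipase (chromosome 7 from 19405504 to 19411866, minus strand, ENSMUSG00000002992). It had only 29, 24, 19, 28 and 24 counts in the flox libraries and 31, 24, 33, 17 and 17 counts in the knockout libraries. The 95% interval of its log2 change, -0.50 to 0.44, was the widest among the members, so a change of that size was not detectable at this depth. A further gene model, Apoc2l (ENSMUSG00000109350), spans Apoc2 and Apoc4 on the same strand and had 0 counts in all 10 libraries. In the GENCODE M21 annotation (GRCm38), 646 of 813 exonic bases of Apoc2, or 79.5%, are also exonic in Apoc2l, against 119 of 2537, or 4.69%, of Apoc4. How reads that match more than 1 gene were counted is not given in sources used here, so the level of Apoc2 is uncertain, and so is its place at the end of the order.

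**Figure D3:**
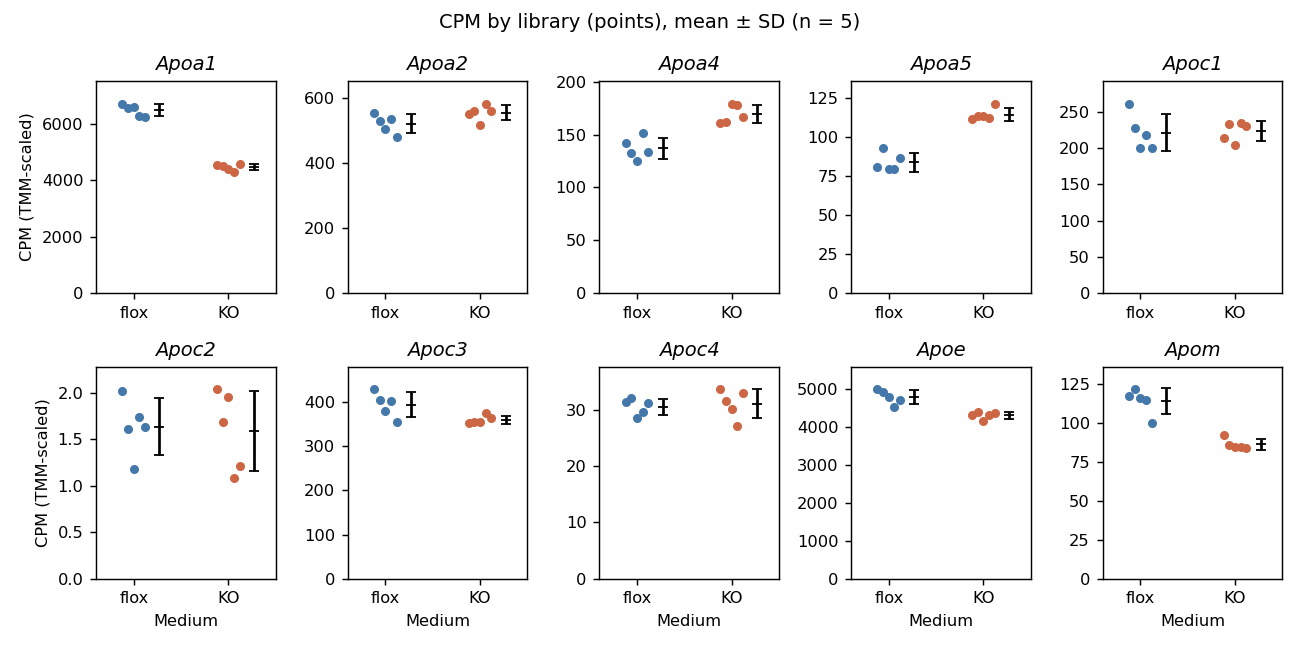
Each panel gives CPM on an axis from 0 for 1 gene, with 1 point per library and mean ± SD (n = 5) beside the points. The groups lie apart for Apoa1, Apoa4, Apoa5, Apoe and Apom and overlap for Apoa2, Apoc1, Apoc2, Apoc3 and Apoc4.

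Ratios within a library barely depend on scaling between libraries, and 6 pairs of members with a shared particle, opposite roles or neighbouring genes were compared by an exact two-sided permutation test, adjusted over the 6. The smallest p that 5 against 5 libraries allow is 0.00794. The ratio of Apoa1 to Apoa2 had a geometric mean of 12.5 in flox medium and 8.07 in knockout medium, a log2 difference of -0.63 (exact p = 0.00794, adjusted 0.0159), with 5 of 5 knockout libraries below all flox libraries. The ratio of Apoa1 to its neighbour Apoc3 went from 16.5 to 12.4 (log2 difference -0.41, exact p = 0.00794, adjusted 0.0159). The ratio of Apoa5 to Apoc3, an activator to an inhibitor of lipolysis, went from 0.214 to 0.319 (log2 difference 0.58, exact p = 0.00794, adjusted 0.0159). In these 3 ratios the groups lay apart, and without the unnumbered libraries, 4 against 4, they still did but with an adjusted p of 0.0571 by the exact test. The ratio of Apoc1 to Apoe was 0.17 higher on the log2 scale (exact p = 0.0317, adjusted 0.0476) with groups that overlapped, and it lost its call in 8 of 12 alternatives. The ratio of Apoa4 to Apoa5 differed by -0.14 (exact p = 0.167, adjusted 0.2), and that of Apoc2 to Apoc3 by 0.09 (exact p = 0.619). CPM are not corrected for length, so each ratio is compared with itself between media only.

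**Figure D4:**
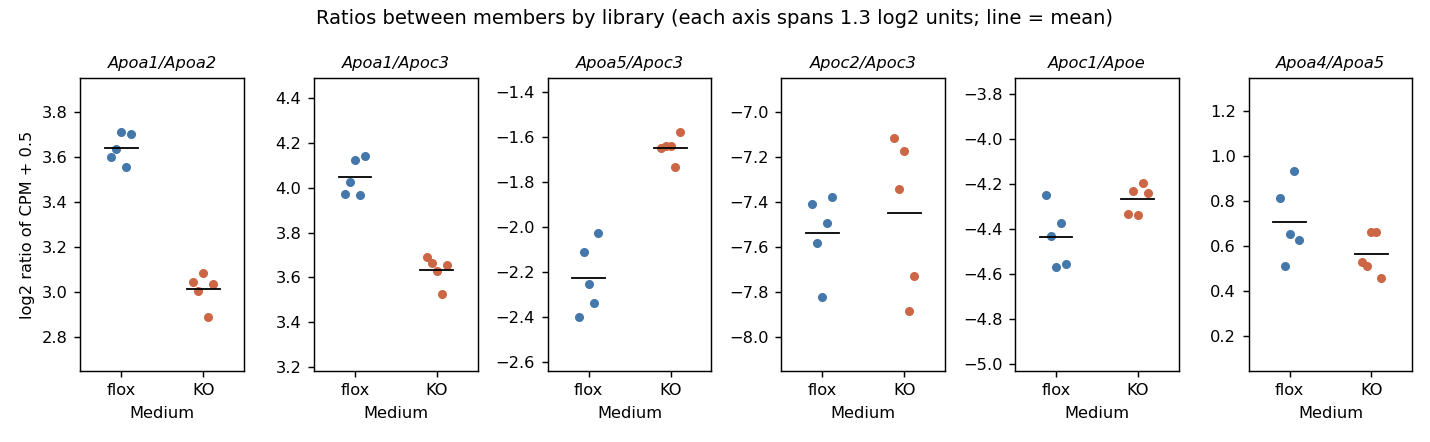
Each panel gives the log2 ratio of CPM plus 0.5 of 2 members for every library, with the group mean as a line, and all panels span the same number of log2 units. The ratios Apoa1/Apoa2 and Apoa1/Apoc3 are lower and Apoa5/Apoc3 higher in every knockout library, while the last 3 panels show groups that overlap.

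Changes followed neither cluster as a whole. The chromosome 9 cluster spans 43340 bases, from 46139878 to 46183217, and holds the member with the largest fall, Apoa1, the smaller fall of Apoc3 and both Apoa4 and Apoa5, which rose. The nearest tested genes outside it were Sik3 and Pafah1b2 on the side of Apoa1 (log2 -0.05 and 0.03, neither passing) and Zpr1 and Bud13 on the side of Apoa5. Zpr1, 1145 bases beyond Apoa5, had a log2 change of 0.26 (edgeR adjusted p = 2.8e-06, SE 0.036) and so rose, while Bud13 had -0.03 and did not pass. In the chromosome 7 cluster, 27610 bases from 19405504 to 19433113, only Apoe passed. Next to Apoe lies Tomm40, a gene of mitochondrial protein import, which rose by 0.15 (edgeR adjusted p = 0.00604), and beyond it Nectin2 at -0.02. On the other side Clptm1 had 0.06 and Relb fell by 0.27 (adjusted p = 0.00453).

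The members outside the clusters also differed from their neighbours. Beside Apoa2, Nr1i3, the nuclear receptor CAR, rose by 0.65 (adjusted p = 0.00304) from 3.34 CPM, and Fcer1g, a signalling chain of myeloid cells, fell by 0.56 (adjusted p = 2.7e-05). Tomm40l there did not pass (log2 -0.06). Beside Apom, Gpank1 fell by 0.37 (adjusted p = 0.00753), and D17H6S53E (-0.12), Bag6 (-0.04) and Prrc2a (-0.06) did not pass.

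**Figure D5:**
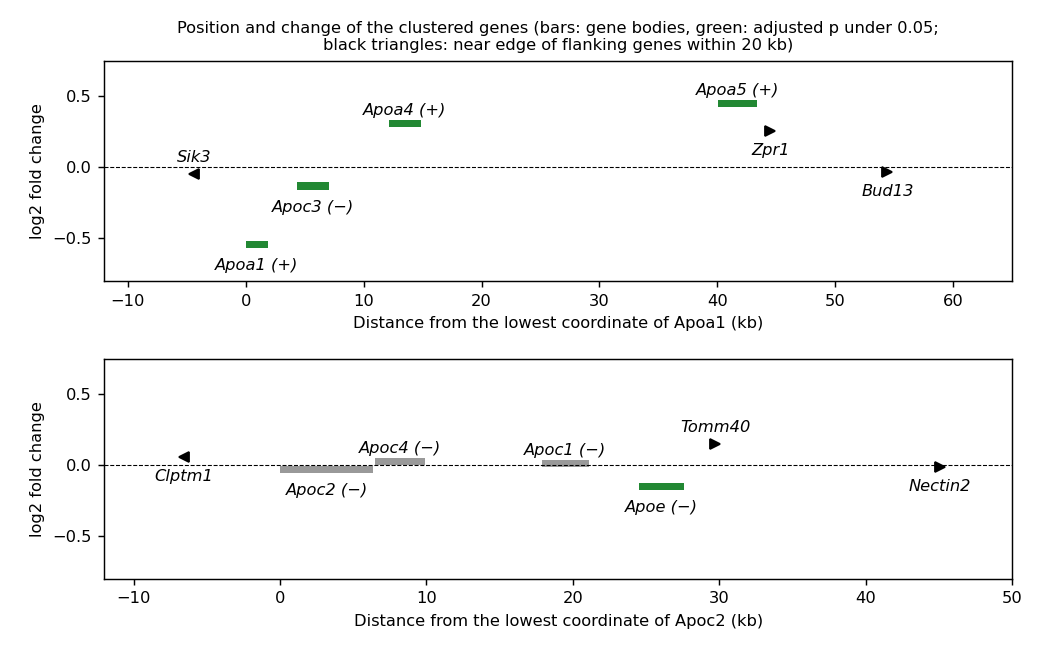
The horizontal axes give distance in kb along the 2 clusters and the vertical axes the log2 fold change, knockout over flox medium. Bars are gene bodies with their strand, green where the gene passed an adjusted p of 0.05, and triangles are the near edges of flanking genes within 20 kb. In the upper panel Apoa1 and Apoc3 lie below 0 and Apoa4 and Apoa5 above it, and in the lower panel Apoe is the only member that passed.

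Genes around the same particles were read from lists. The counts here and below stand beside 18.2% of all genes tested that were higher and 18.1% that were lower. Among genes with a mean of at least 50 CPM these shares were 33.5% and 19.9%. No list was tested as a set. Of 14 other apolipoproteins and lipoprotein proteins tested, 4 were higher and 2 lower (median log2 0.06). Apob, the fixed apolipoprotein of very low density lipoprotein, had a log2 change of 0.00 (SE 0.027), while Mttp, which lipidates it, rose by 0.59. Clu, which encodes clusterin or apolipoprotein J, fell from 5931 ± 168 to 4344 ± 148 CPM (edgeR log2 -0.45, SE 0.026, adjusted p = 5.7e-13). Saa4, the constitutive serum amyloid A, rose by 0.25 (SE 0.050, edgeR adjusted p = 2.6e-04). Of 11 genes of lipolysis and lipoprotein remodelling, 2 were higher and 4 lower (median log2 -0.06). Angptl4, an inhibitor of lipoprotein lipase, rose by 0.67, Gpihbp1, the endothelial anchor of that lipase, fell by 1.61 and Lpl, the lipase itself, fell by 0.51. Gpihbp1 is an endothelial gene, and all 11 endothelial markers were lower too. Its level in knockout medium was 0.327 times that in flox medium, and that of the summed endothelial markers 0.567 times. The part of endothelial or other cell types in the falls of Gpihbp1 and Lpl was not tested.

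Of 15 receptors and their regulators, 6 were higher and 4 lower (median log2 0.06). Mylip, which targets the LDL receptor for degradation, fell from 42.1 ± 2.15 to 23.6 ± 2.49 CPM (edgeR log2 -0.83, SE 0.061, adjusted p = 4.6e-11), the sorting receptor gene Sort1 fell by 0.67 and the very low density lipoprotein receptor gene Vldlr rose by 0.58. Of 8 genes of sterol and phospholipid efflux, 1 was higher and 3 lower (median log2 -0.05). Abca1, which hands lipid to apolipoprotein A-I, rose by 0.51 as Apoa1 fell, while Abcg5, a transporter of sterol into bile, fell by 0.25 and Abca7 by 0.32.

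Of 33 transcriptional regulators known for apolipoprotein genes, 12 were higher and 10 lower (median log2 0.00), against 18.2% and 18.1% of all genes tested. The membrane-bound factor gene Creb3l3, known to activate Apoa4, Apoa5 and Apoc2, rose from 192 ± 11.4 to 717 ± 38.4 CPM (edgeR log2 1.90, SE 0.039, adjusted p = 3.7e-22). Srebf1, of lipogenesis, rose by 0.72, and the forkhead factor gene Foxa3 fell by 0.62 (SE 0.049, edgeR adjusted p = 2.5e-10). Hnf4a, which encodes a nuclear receptor that drives much of hepatic apolipoprotein expression and was named after its values were seen, went from 821 ± 19.7 to 777 ± 24.3 CPM (edgeR log2 -0.08, SE 0.026, adjusted p = 0.0188). All 14 PPARα targets listed rose (median log2 1.86), and those with the smallest p were the thioesterase gene Acot1 (log2 4.31), the kinase gene Pdk4 (2.68) and the acyl-CoA synthetase gene Acsl1 (2.02). The members' changes, from -0.54 to 0.45, were smaller in size than that of every one of these 14, the least of which was 0.71 for Vnn1. These 14 genes were listed with earlier results of these data known, so their common rise and this contrast are descriptions of the list alone.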

How the data were processed

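Poly-A selected RNA of 10 hepatocyte libraries was measured, 5 per medium. Genome build GRCm39, featureCounts 1.5.0-p3 and HISAT2 2.0.5 are named per the submitters' processing notes, while annotation release and strand setting are not given in sources used here. The authors deposited whole-number counts per gene, and a second deposited table holds FPKM, each equal to the count over gene length and 1 constant per library. Counts were fitted in R 4.3.3 with edgeR 4.0.16 (glmQLFTest, TMM scaling). The fit kept 14183 genes by filterByExpr (minimum count 10, total 15), with 1 term for the medium. Benjamini-Hochberg adjustment ran over all genes tested, with a threshold of 0.05. Each SE was the absolute log2 change over the square root of the F statistic. Simulated counts of this comparison covered 14041 genes. Of genes changed by 0.3 (log2) 52.5% were called, of those changed by 0.6 76.5%, and of unchanged genes 0.0939%. Only 99 and 98 genes were changed by these amounts, while 36.4% of genes tested were called in the real data. The adjustment was thus stricter in the simulation, and these shares do not give the power of the real comparison. Ratios of CPM plus 0.5 were tested by exact permutation (scipy 1.17.1).

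The alternatives were other scalings, DESeq2 1.42.0, other filters, limma 3.58.1 on log2 of FPKM plus 1 or 0.1 (filter of 0.5 FPKM in 5 libraries), a replicate block, and leaving out libraries. Members and lists were chosen with earlier results of these data known. Named genes were all members, up to 3 genes with the smallest p per list besides Apob and Mttp, overlapping gene models and the 2 nearest tested genes on each side, of which a neighbour of Apoa2 is not reported here. Replicate libraries differed by more than counting noise, with a chi-square per degree of freedom of at least 2.04.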

Additional observations from a re-analysis of the deposited data

Results flagged for a closer look

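Groups of 5 values were screened for a library far from the others, over the 10 members and 6 ratios in each medium, and 2 of 32 groups were flagged, where chance flags about 1 in 20. Apoa5 in the unnumbered library of knockout medium stood at 121.3 CPM, where the other 4 knockout libraries lay between 111.7 and 113.4 CPM. Apom in replicate 1 of knockout medium stood at 92.3 CPM, where the other 4 lay between 84.3 and 85.9 CPM.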

How the results depend on the processing

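Across all 20 alternatives Apoa1 (log2 -0.58 to -0.53), Apom (-0.45 to -0.38), Apoa4 (0.27 to 0.34) and Apoa5 (0.41 to 0.49) kept their direction and their call. Apoe and Apoc3 did so in 19, and lost the call on log2 of FPKM plus 1 with no filter (adjusted p = 0.0551 and 0.113), which left 2 members lower; the cause was not tested. Apoa2 lost its call in 17. Apoc1, Apoc2 and Apoc4 never passed and changed sign under some settings. With library size alone Apoc1 was at -0.0263 and Apoc4 at -0.0155, and the median of all genes moved by -0.0392. With a replicate block they were at -0.0307 for Apoc1 and 0.0424 for Apoc2, and without the unnumbered libraries at -0.0344 and 0.0504. Leaving out 1 library at a time, Apoc1 ran from -0.0252 to 0.0750, Apoc2 from -0.134 to 0.0850 and Apoc4 from -0.00625 to 0.0686. The genes called higher numbered 2585, or 1982 with library size alone, and those called lower 2571 or 3217.

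Correlations of same-numbered deviations from the group means were 0.0204, -0.00473, -0.00887 and 0.0747 for replicates 1 to 4. Those of differently numbered libraries ran from -0.0378 to 0.0309. Whether the replicate numbers pair the libraries was not tested. A replicate block over the 4 numbered libraries of each group gave 2326 genes higher and 2325 lower, and 2 members higher and 4 lower. The same libraries without the block gave 2264 genes higher and 2307 lower, with the same counts of members. Without the unnumbered libraries, 4 against 4, the ratio differences were -0.62 for Apoa1 to Apoa2, -0.39 for Apoa1 to Apoc3 and 0.61 for Apoa5 to Apoc3, each with groups apart but adjusted p = 0.0571 because fewer libraries allow only larger p-values. The ratio of Apoc1 to Apoe was then 0.13 (adjusted p = 0.171), and 0.14 to 0.22 leaving out 1 library at a time. No paired test of the ratios was made. Depth limits Apoc2 most, with 17 to 33 counts per library.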

Other observations

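The 5 genes whose log2 CPM followed Apoa1 most closely over the 10 libraries (mean of at least 1 FPKM) were Slfn5, Igfbp4, Cdo1, Ahsg and Gm8893. Each was lower with knockout medium, by 0.95, 1.02, 0.70, 0.63 and 1.39 on the log2 scale in that order. The 5 that ran most opposite were Angptl4, Gclm, Ahsa1, Ednrb and Txnip, with log2 changes of 0.67, 0.43, 0.33, 0.79 and 1.66. Libraries of the 2 media form separate groups, so this likeness, ordered by Pearson correlation, rests mostly on the difference between media.

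Among intestinal epithelium genes, listed because Apoa4 is mainly an intestinal product, 2 of 3 tested were higher with knockout medium. Fabp2, the intestinal fatty acid binding protein gene, went from 6.74 to 15.9 CPM (edgeR log2 1.24, SE 0.10, adjusted p = 7.2e-10). Lgals4, a galectin gene, went from 2.85 to 8.24 CPM (edgeR log2 1.53, SE 0.15, adjusted p = 1.2e-08). Vil1 did not pass (log2 -0.23, SE 0.19). Cdx2 and Sis, which mark intestinal identity, had 0 counts in all 10 libraries. Alpi, the intestinal alkaline phosphatase gene, was not among the genes tested. It had 5 to 11 counts in the flox libraries and 2 to 13 counts in the knockout libraries. The summed list ran from 10.9 to 14.3 CPM with flox medium and from 22.7 to 30.3 CPM with knockout medium.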
